A study of Mus musculus with 15 samples.

Results

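Collagens, laminins, integrins and fibronectin were followed across Kat6b knockout, Kat6b transgenic and wild-type neural stem and progenitor cells of the mouse. Genes were chosen by symbol alone, with no measured value in the rule, although earlier results of these data were known when it was set. A member was any collagen chain (Col with a number, then a with a number), laminin chain (Lama, Lamb or Lamc with a number), integrin chain (Itga or Itgb with a number, and Itga2b) or Fn1. The rule found 76 of 26263 named genes, which were 44 collagen chains, 11 laminin chains, 20 integrin chains and fibronectin. Of these, 59 passed the filter on low counts and were tested. The other 17 held at most 17 counts and 0.592 CPM (counts scaled to library size) in any library, among them Itga11, Itgb6, Col1a2, Col3a1, Col24a1, Col8a1, Col8a2, Col10a1, Col13a1, Col15a1, Col17a1, Col6a4, Col6a5, Col6a6 and Lamb3. Col6a6 had 0 counts in all 15 libraries, which allows up to 3 counts per library, or 0.243 CPM at the lowest depth and 0.0478 CPM at the highest.

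The cells came from the dorsal telencephalon, the future cerebral cortex, of embryos at E12.5 and were all kept in culture with EGF and FGF as neurospheres, floating spheres of dividing cells, before total RNA was sequenced. WT_B6 (n = 3, replicates 1, 2 and 4) is wild type and KO_B6 (n = 4) is Kat6b knockout, both on C57Bl/6. WT_FvB (n = 2) is wild type and Tg_FvB (n = 6) carries a Kat6b transgene, both on a mixed FvB/BalbC background. Genotype effects were thus read within a background, and the wild types also differ by strain. In the comparison of the wild types, background, culture and library cannot be told apart. By the labels WT_FvB replicates 1 and 2 and Tg_FvB replicates 1 and 2 come from litter 844. Tg_FvB replicates 3 to 6 come from litter 873, which has no wild type, so genotype and litter cannot be told apart for them. Where litter is a covariate, the transgene effect rests on litter 844 alone. Kat6b encodes a histone acetyltransferase, and the labels give neither the deleted part of the knockout allele nor the promoter of the transgene.

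The extracellular matrix that these genes encode forms the basement membrane at the outer surface of the embryonic cortex, to which the endfeet of radial glia attach, and fills the space between cells. Laminins, trimers of an alpha, a beta and a gamma chain, assemble into a sheet that type IV collagen crosslinks, while fibrillar collagens and fibronectin form fibres. Integrins, dimers of an alpha and a beta chain in the cell membrane, bind these proteins and link them to the actin cytoskeleton, and in the forebrain they hold progenitors to the basement membrane and the ventricular niche. Neurospheres are grown without the meninges, which supply much of the matrix of the embryonic cortex.

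Libraries held 12336303 to 62819028 counts over named genes, and the members together took 0.229% to 0.334% of them. Kat6b stood at 83.5 to 85.1 CPM in WT_B6, 61.0 to 66.1 in KO_B6, 51.9 to 54.4 in WT_FvB and 139.6 to 288.9 in Tg_FvB. All 12 markers of neural stem and progenitor cells were detected in every group. They summed to 9049 to 9063 CPM in WT_B6, 7507 to 9123 in KO_B6, 7194 to 7396 in WT_FvB and 6994 to 10252 in Tg_FvB. In KO_B6 2 were called higher and 5 lower than in WT_B6 (edgeR adjusted p under 0.05), against 24.8% and 20.9% of all genes. In WT_FvB 2 were called higher and 6 lower than in WT_B6, against 25.4% and 23.5% of all genes. None was called with the transgene. Of 12 markers of meninges and fibroblasts 8 averaged under 1 CPM in each group. Their sum was 101 to 111 CPM in WT_B6, 53.9 to 114 in KO_B6, 49.5 to 50.7 in WT_FvB and 29.4 to 79.2 in Tg_FvB. Lum was at 0 in both wild-type groups, while no marker of this list was at 0 throughout KO_B6 or Tg_FvB. Of 5 tested, Pdgfrb and Thy1 were called lower in WT_FvB than in WT_B6. None was called in the knockout or with the transgene. The 10 endothelial markers summed to 3.54 to 3.93 CPM in WT_B6, 4.89 to 6.12 in KO_B6, 9.21 to 9.71 in WT_FvB and 5.5 to 7.84 in Tg_FvB. Cdh5 was at 0 in both wild-type groups, while no endothelial marker was at 0 throughout KO_B6 or Tg_FvB. Of 5 tested, Flt1 and Kdr were called higher in KO_B6 than in WT_B6 (log2 fold change 2.58 and 0.51). In WT_FvB Flt1 (4.36), Esam (3.35) and Egfl7 were called higher than in WT_B6. No endothelial marker was called lower, and none was called with the transgene. Pericyte and smooth muscle markers summed to 281 to 311 CPM in WT_B6, 152 to 201 in KO_B6, 204 to 209 in WT_FvB and 203 to 253 in Tg_FvB, with 6 of 9 under 1 CPM in each group. Their members moved in opposite directions. Of 4 tested, Acta2 was called higher than in WT_B6, with a log2 fold change of 1.19 in KO_B6 and 2.54 in WT_FvB. Notch3 was called lower (-0.87 and -0.63), and none was called with the transgene. The 8 neuron markers summed to 1124 to 1135 CPM in WT_B6, 1017 to 1148 in KO_B6, 972 to 1021 in WT_FvB and 866 to 1102 in Tg_FvB. In the knockout Neurod1 was called higher and Tubb3 and Dcx lower. With the transgene Neurod1 and Rbfox3 were called higher, Rbfox3 not without Tg_FvB replicates 5 and 6 (edgeR adjusted p = 0.0602). Rbfox3, Tubb3 and Dcx were called lower in WT_FvB than in WT_B6. With the transgene 1.85% of all genes were called. These marker lists moved between groups, and their part in the results was not tested.

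Some libraries were far closer to each other than the rest of their group. The 3 WT_B6 libraries differed by a biological coefficient of variation (BCV) of 0.0172 to 0.0358, the WT_FvB pair by 0.0316, KO_B6 replicates 2 and 3 by 0.0268 and Tg_FvB replicates 1 to 3 by 0.0338 to 0.0503, against 0.115 to 0.275 for all other pairs within a group. They carry different combinations of litter and embryo number within each group, and each was kept as a replicate on these labels alone. They differed by more than sampling noise (chi-square per degree of freedom 2.16 to 12.1). This cannot decide whether they come from separate cultures, since repeat libraries of 1 culture can exceed that noise too. WT_B6 replicate 1 and WT_FvB replicate 2 both carry litter 844 and embryo 5 although their backgrounds differ, so 1 of these labels may be wrong, which touches the litter covariate and the wild-type comparison. With each such set summed into 1 library, edgeR called 0 members in any comparison at an adjusted p under 0.05, and 9, 7, 13 and 16 of 63 members had an unadjusted p under 0.05 in the knockout, transgene, difference and wild-type comparisons. For Tg_FvB replicates 5 and 6 the column heads of the count table say wild type, while their genotype field says Kat6b Tg and their Kat6b levels were 139.6 and 288.9 CPM. Calls that depend on these libraries are therefore given without them too.

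Type IV collagen chains are encoded in pairs that point away from each other, and the windows around the starts of the 2 pairs above 1 CPM are shown because their chains differ between the groups. Of the 76 members 55 had a window in the RefSeq table of GRCm38.p6, the assembly of mm10, each from 250 bases before to 50 bases after the start. Col4a1 lies at chr8:11312777-11313076 (minus strand), Col4a2 at chr8:11312555-11312854 (plus strand), Col4a5 at chrX:141475169-141475468 (plus strand) and Col4a6 at chrX:141474027-141474326 (minus strand). Each is written 5′ to 3′ on the strand of its gene. Capitals mark matches to a CCAAT box (CCAAT or ATTGG) or a GC box (GGGCGG or CCGCCC).
Col4a1: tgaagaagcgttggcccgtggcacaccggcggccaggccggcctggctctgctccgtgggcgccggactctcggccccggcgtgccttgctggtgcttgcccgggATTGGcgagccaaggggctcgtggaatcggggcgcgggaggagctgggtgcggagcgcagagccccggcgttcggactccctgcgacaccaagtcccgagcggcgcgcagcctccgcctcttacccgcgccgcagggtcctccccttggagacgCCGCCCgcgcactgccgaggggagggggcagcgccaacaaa
Col4a2: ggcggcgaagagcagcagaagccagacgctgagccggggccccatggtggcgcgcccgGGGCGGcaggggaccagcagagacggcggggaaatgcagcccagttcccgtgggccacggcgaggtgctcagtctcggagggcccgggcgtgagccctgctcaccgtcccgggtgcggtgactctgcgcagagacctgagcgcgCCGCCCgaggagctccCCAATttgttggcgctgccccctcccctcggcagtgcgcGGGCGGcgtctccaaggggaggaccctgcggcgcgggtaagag
Col4a5: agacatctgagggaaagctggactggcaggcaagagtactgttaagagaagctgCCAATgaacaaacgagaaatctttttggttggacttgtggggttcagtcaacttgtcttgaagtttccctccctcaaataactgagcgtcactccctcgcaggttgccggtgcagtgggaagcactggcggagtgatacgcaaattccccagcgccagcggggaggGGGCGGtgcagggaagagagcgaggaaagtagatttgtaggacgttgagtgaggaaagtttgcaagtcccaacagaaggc
Col4a6: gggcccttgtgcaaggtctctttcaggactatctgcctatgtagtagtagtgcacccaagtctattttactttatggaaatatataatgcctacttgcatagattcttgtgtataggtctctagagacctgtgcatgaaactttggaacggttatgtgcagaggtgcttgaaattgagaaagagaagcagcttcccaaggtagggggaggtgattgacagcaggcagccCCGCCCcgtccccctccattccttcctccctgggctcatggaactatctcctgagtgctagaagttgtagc
The starts of Col4a1 and Col4a2 are 21 bases apart and their windows share 78 bases, so the GC box at the end of the Col4a1 window is the same site as the last one of Col4a2. The starts of Col4a5 and Col4a6 are 1343 bases apart, and the windows share none. A CCAAT box is in all of them but Col4a6, and a GC box in all of them. Among 32851 windows of this length 37.4% hold a CCAAT box and 35.7% a GC box on either strand. The TATA box searched (TATAAA or TTTATA) is in 13.6% of all windows and was not found in these 4.

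Levels between genes are compared per gene length, as CPM per kilobase. On that scale the integrin beta 1 chain gene Itgb1, the common partner of most alpha chains, was the highest member in every group, at 180.4 in WT_B6, 221 in KO_B6, 198 in WT_FvB and 193 in Tg_FvB. Itga6 (72.9), Itgb8 (65.2), Itgb5 (39.3) and Itga7 (22.2) followed in WT_B6, ahead of the highest matrix genes Lamc1 (21.3), Lamb2 (15.9) and Col9a3 (15.6). Fn1 stood at 1.65 CPM per kilobase in WT_B6, 4.75 in KO_B6, 32.1 in WT_FvB and 10.5 in Tg_FvB. It was thus the most abundant matrix gene of WT_FvB per length, and ranked 17 of the 41 tested matrix genes in WT_B6.

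In the knockout comparison edgeR's quasi-likelihood F-test (p adjusted by Benjamini-Hochberg over all genes) called 23 of the 59 tested members (39.0%) at an adjusted p under 0.05, against 45.8% of all 15261 genes. Of these, 12 were higher (24.8% of all genes were) and 11 lower (20.9% of all genes were), and the median log2 fold change was -0.04, against 0.02 over all genes. The share of members called was thus near that of all genes. With the transgene 5 members (8.47%) were called against 1.85% of all genes, 2 higher (0.688% of all genes) and 3 lower (1.17% of all genes), with a median of -0.18 against 0.01. The knockout and transgene effects differed from each other in 20 members (33.9%) against 37.3% of all genes, 11 of them higher in the knockout (19.5%) and 9 lower (17.8%). In this difference allele and background cannot be told apart. Between the wild types 28 members (47.5%) were called against 48.9% of all genes, with 19 higher in WT_FvB (25.4% of all genes) and 9 lower (23.5%), and a median of 0.35 against 0.02. The wild-type comparison shares its libraries with the other comparisons, so their values are set side by side and not correlated. In bulk RNA fewer cells of a type and less RNA per cell cannot be told apart.

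**Figure D1:**
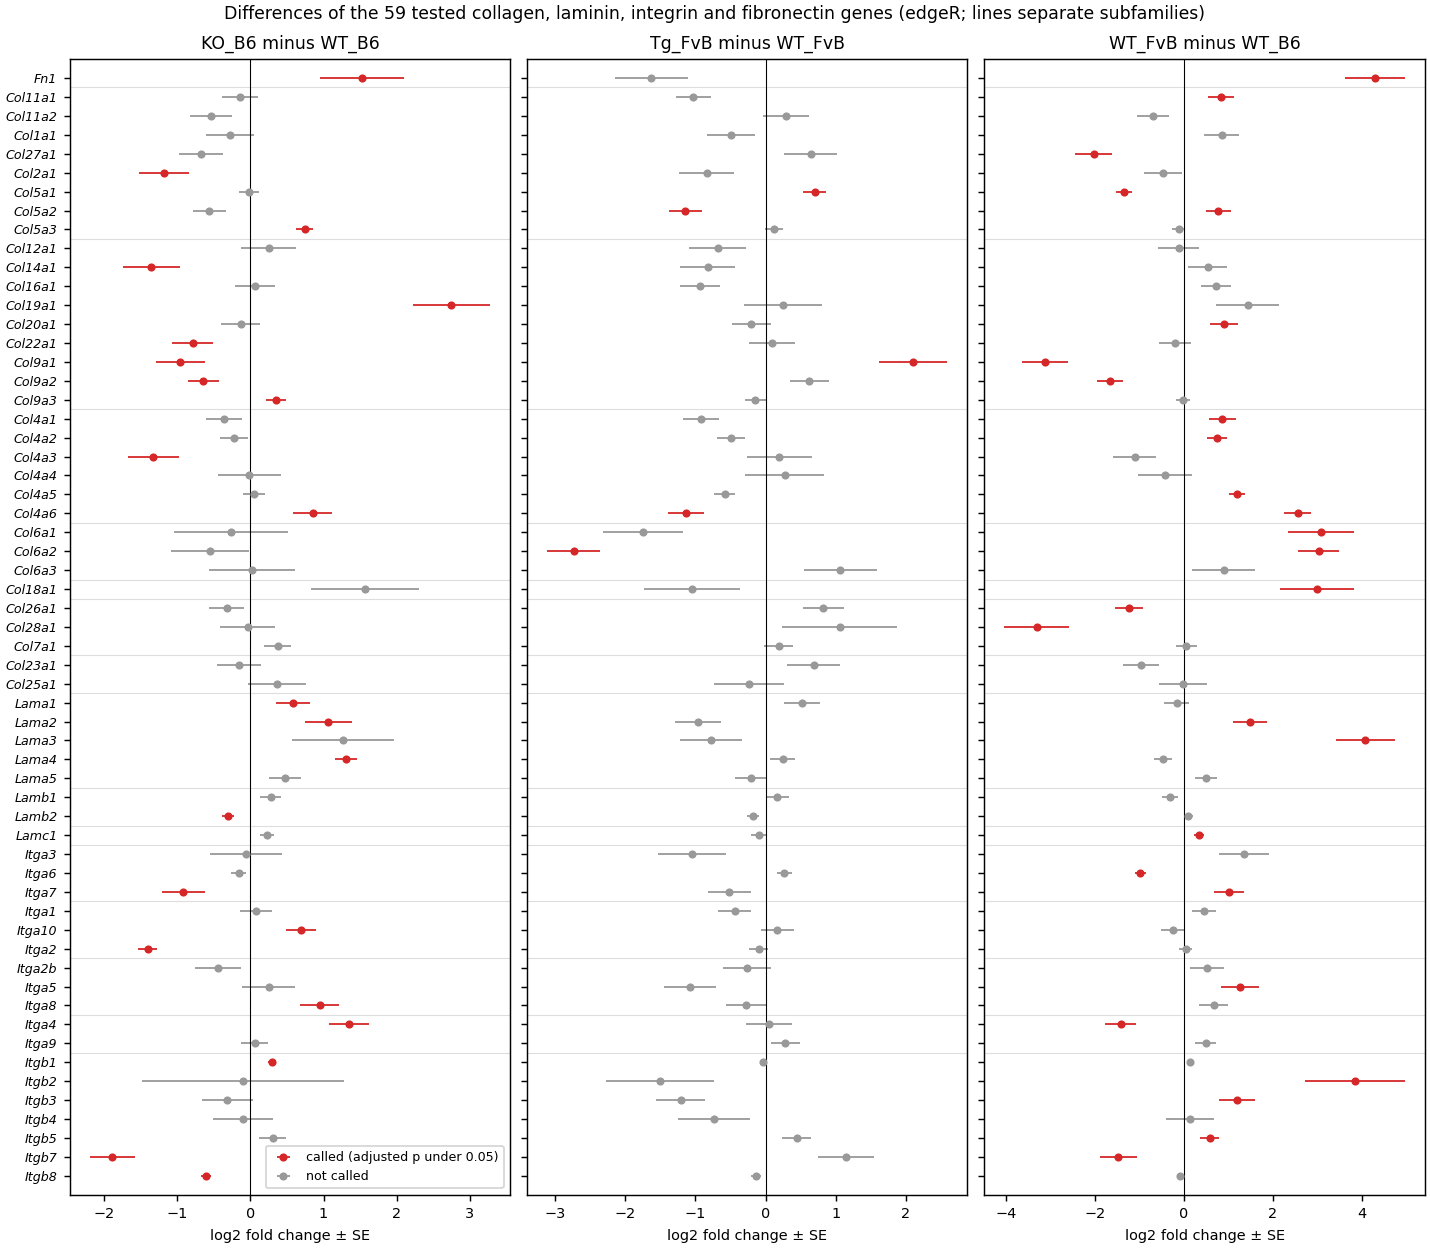
Log2 fold change ± SE of the 59 tested members in KO_B6 against WT_B6, Tg_FvB against WT_FvB and WT_FvB against WT_B6, with red points called at an edgeR adjusted p under 0.05 and lines between subfamilies. Of these, 23, 5 and 28 members were called, and Fn1 at the top lies at 1.52, -1.63 and 4.28.

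Fibronectin RNA was lowest in WT_B6 and highest in WT_FvB, with both Kat6b genotypes in between. Fn1 (gene identifier 14268, chromosome 1, 71585473 to 71653280 in GRCm38) encodes the dimeric glycoprotein that integrins assemble into fibrils. Its levels were 12.7, 14.5 and 13.9 CPM in WT_B6 and 23.5, 54.5, 52.0 and 27.9 CPM in KO_B6 (replicates 1 to 4). They were 272 and 262 CPM in WT_FvB, while the lowest, median and highest of the 6 Tg_FvB libraries were 17.2, 67.5 and 176 CPM. Every knockout library was above every wild type of its background, and every transgenic library was below both of its wild types. Tg_FvB replicate 6 was the lowest and close to WT_B6, and replicates 4 and 5 were the highest. Fn1 rose in the knockout by 1.52 ± 0.57 (SE) on the log2 scale, or 2.88-fold (edgeR adjusted p = 0.0410). It lost this call in 8 of 18 alternatives, among them litter as a covariate and the omission of any WT_B6 library or of KO_B6 replicate 2 or 3. Within litter 843 the knockout libraries had 23.5 and 54.5 CPM against 14.5, and within litter 929 they had 52.0 and 27.9 against 13.9. The exact 2-sided permutation test over the 35 assignments of the labels gave p = 0.0571 (smallest possible 0.0286).

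With the transgene Fn1 differed by -1.63 ± 0.52 on the log2 scale and was not called (edgeR adjusted p = 0.115), and the exact permutation test over 28 assignments of the labels gave p = 0.107 (smallest possible 0.0357). Without Tg_FvB replicates 5 and 6 it was called at -1.58 ± 0.39 (adjusted p = 0.0414), and without replicate 4 at -1.95 ± 0.48 (adjusted p = 0.0187). The knockout and transgene effects differed by 3.15 ± 0.78 (adjusted p = 0.00611). Between the wild types Fn1 was 19.4-fold higher in WT_FvB, a log2 fold change of 4.28 ± 0.67 (adjusted p = 0.000232), which was the largest difference of any member in that comparison. KO_B6 thus stood between the wild types, far nearer to WT_B6. Over the 15 libraries the members most like Fn1 in log2 CPM were Col4a6 (Pearson r = 0.957), Col4a5 (0.919) and Col18a1 (0.906). The most opposite was Col26a1 (r = -0.913). These are measures of likeness over 15 libraries that fall into 4 groups and share background and near-identical profiles, and they carry no test.

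**Figure D2:**
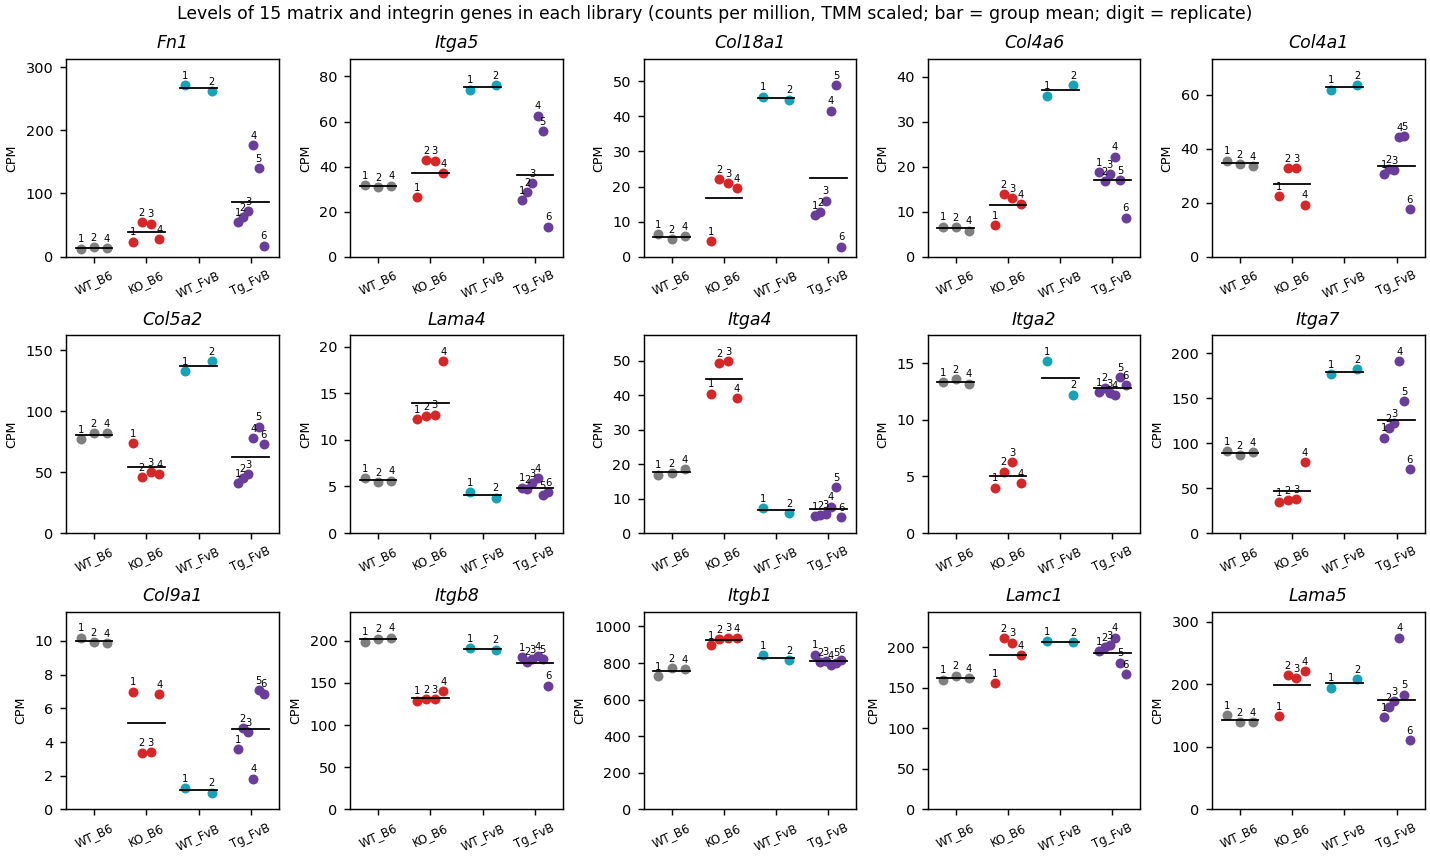
CPM (TMM scaled) of 15 members in each library of the 4 groups, with the replicate number at each point and a bar at the group mean. Fn1 is at 12.7 to 14.5 CPM in WT_B6 and at 262 to 272 CPM in WT_FvB, while Itgb1 lies between 729 and 939 CPM in all 15 libraries.

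Of 5 laminin alpha chains, which carry the sites bound by integrins, 3 rose in the knockout (24.8% of all genes did) and none was called lower, with Lama4 showing the largest change among those above 1 CPM. Lama4 (gene identifier 16775, chromosome 10, 38965515 to 39110188), an alpha chain of vascular and other basement membranes, had 5.89, 5.48 and 5.61 CPM in WT_B6 and 12.2, 12.6, 12.7 and 18.4 in KO_B6. The groups did not overlap, and KO_B6 replicate 4 was the highest. Lama4 rose 2.48-fold (1.31 ± 0.16 log2, edgeR adjusted p = 2.79e-05), and it lost the call in none of its 18 alternatives but the summing of near-identical libraries. In WT_FvB it had 4.38 and 3.78 CPM and in Tg_FvB 4.04, 4.79 and 5.86 CPM (lowest, median and highest), which overlap. The transgene difference was 0.24 ± 0.18 (adjusted p = 0.491) and the knockout effect exceeded it by 1.07 ± 0.24 (adjusted p = 0.00319). Lama1, the alpha chain of the earliest embryonic basement membranes, rose from 8.17 ± 0.773 to 12.2 ± 3.12 CPM (adjusted p = 0.0482), a call lost in 12 of 18 alternatives. Lama2, the alpha chain of merosin, rose from 0.383 ± 0.109 to 0.795 ± 0.211 CPM (adjusted p = 0.0142) and was not called without WT_B6 replicate 4.

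Lama5 remained the main alpha chain in each group. Its levels were 151, 139 and 139 CPM in WT_B6, 149, 215, 209.8 and 221 in KO_B6 and 195 and 209 in WT_FvB, with 110.3, 168 and 275 as lowest, median and highest in Tg_FvB. KO_B6 replicate 1 lay within the WT_B6 range and Lama5 was not called in the knockout (0.47 ± 0.22, adjusted p = 0.0888). Per length it made up 87.2 ± 0.752% of the alpha chain RNA in WT_B6, 82.4 ± 2.53% in KO_B6, 91.0 ± 0.689% in WT_FvB and 87.4 ± 3.66% in Tg_FvB (mean ± SD). The share of Lama4 was 6.5 ± 0.106%, 11 ± 1.75%, 3.48 ± 0.504% and 4.78 ± 0.944% in the same order, so that KO_B6 held the most and WT_FvB the least. Lama3, an alpha chain of epithelia, was scarce in WT_B6 (0.109, 0.196 and 0.0322 CPM) and higher in WT_FvB (2.31 and 1.59 CPM), a log2 difference of 4.07 ± 0.66 (adjusted p = 0.000285). Its WT_B6 value rests on 1 to 6 counts per library.

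Of the beta and gamma chains Lamb2 fell in the knockout and Lamc1 was not called. Lamc1, the gamma chain of most laminins, had 160.3, 165 and 162 CPM in WT_B6 and 156, 211, 206 and 190.0 in KO_B6. KO_B6 replicate 1 was below the wild types and the other 3 above them, and Lamc1 was not called (0.23 ± 0.09, edgeR adjusted p = 0.0591). In WT_FvB it had 208 and 206 CPM, higher than in WT_B6 by 0.35 ± 0.11 (adjusted p = 0.0190, not called without WT_FvB replicate 1 or 2), and in Tg_FvB 167, 198 and 212 CPM (lowest, median and highest). Lamb2, the main beta chain, fell in the knockout from 89.6 ± 2.56 to 72.1 ± 8.37 CPM (-0.31 ± 0.08, adjusted p = 0.00596), whereas Lamb1 stood at 32.2 ± 0.485 and 38.9 ± 10.6 CPM and was not called (adjusted p = 0.144). Per length Lamb2 made up 74.0 ± 0.522% of beta chain RNA in WT_B6 and 65.7 ± 4.51% in KO_B6. With the transgene edgeR called 0 of 8 laminin chains, against 1.85% of all genes, and 1 chain had an unadjusted p under 0.05. Without replicates 5 and 6 it called 0 too, against 4.19% of all genes. DESeq2 and limma-voom also called 0 on all libraries.

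Type IV collagen, the crosslinked network of basement membranes, had higher levels of both its common chains in WT_FvB than in WT_B6, and neither was called by genotype. Col4a1 (gene identifier 12826, chromosome 8, 11198423 to 11312889) and Col4a2 (gene identifier 12827, chromosome 8, 11312805 to 11449287) encode the chains of the common trimer. Col4a1 had 35.6, 34.3 and 33.6 CPM in WT_B6, 22.4, 32.7, 32.8 and 19.3 in KO_B6 and 61.8 and 63.6 in WT_FvB, with 17.5, 32.2 and 44.6 in Tg_FvB (lowest, median and highest). Col4a2 had 10.3, 8.93 and 11.5 CPM in WT_B6, 7.90, 10.1, 9.97 and 7.01 in KO_B6 and 16.4 and 17.8 in WT_FvB, with 7.87, 11.9 and 16.2 in Tg_FvB. For both genes WT_FvB was above every other library, KO_B6 replicates 1 and 4 were the lowest of the B6 libraries, and Tg_FvB replicate 6 was the lowest transgenic library. All 4 knockout libraries were below WT_B6 for Col4a1, while they overlapped for Col4a2. Both were higher in WT_FvB than in WT_B6, Col4a1 by 0.86 ± 0.29 (edgeR adjusted p = 0.0242) and Col4a2 by 0.74 ± 0.23 (adjusted p = 0.0148). These wild-type calls were lost in 5 and 4 of 13 alternatives, among them the omission of WT_B6 replicate 2 or either WT_FvB library and, for Col4a1, of WT_B6 replicate 4. Neither was called in the knockout (adjusted p = 0.247 and 0.354) or with the transgene (0.0802 and 0.211), although Col4a1 was called lower without Tg_FvB replicates 5 and 6 (-0.88 ± 0.19, adjusted p = 0.0223). These 2 genes, whose windows overlap, had a Pearson r of 0.916 over the 15 libraries, and Col4a1 had 2.62 to 3.57 times the RNA of Col4a2 per length in the group means.

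In the other pair above 1 CPM, Col4a6 rose in the knockout while Col4a5 was not called, and the difference between these genes was not tested. Col4a6 (gene identifier 94216, chromosome X, 141165403 to 141474095) encodes a chain of the trimer found under some epithelia and smooth muscle. It had 6.65, 6.58 and 5.77 CPM in WT_B6 and 6.94, 14, 13.0 and 11.7 in KO_B6, and 35.8 and 38.2 in WT_FvB with 8.67, 17.7 and 22.2 in Tg_FvB (lowest, median and highest). KO_B6 replicate 1 was close to the wild types and the other 3 well above, while every transgenic library was below both WT_FvB libraries. Col4a6 rose in the knockout (0.85 ± 0.27, edgeR adjusted p = 0.0170) and fell with the transgene (-1.14 ± 0.25, adjusted p = 0.0387), and those effects differed by 1.99 ± 0.37 (adjusted p = 0.00120). It was 5.86-fold higher in WT_FvB than in WT_B6 (adjusted p = 4.97e-05). The knockout call was lost in 6 of 18 alternatives, among them the omission of WT_B6 replicate 2 or 4 or of KO_B6 replicate 2. The transgene call was lost in 8 of 19, among them litter as a covariate, without either WT_FvB library and without Tg_FvB replicate 1, 2 or 3, and held without replicates 5 and 6 (-0.98 ± 0.19, adjusted p = 0.0143).

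Col4a5 (gene identifier 12830, chromosome X, 141475370 to 141689236), its neighbour, had 76.9, 74.1 and 79.3 CPM in WT_B6 and 66.1, 80.6, 83.3 and 88.0 in KO_B6, which overlap (0.05 ± 0.15, adjusted p = 0.801). It had 177 and 173 CPM in WT_FvB, above all 6 transgenic libraries (77.7, 119 and 145 as lowest, median and highest). The transgene difference of -0.58 ± 0.15 was not called (adjusted p = 0.0663) until replicates 5 and 6 were left out (-0.50 ± 0.10, adjusted p = 0.0162). Col4a5 made up most of the type IV collagen RNA per length in each group, 59.9 ± 0.795% in WT_B6, 63.2 ± 4.96% in KO_B6, 60.2 ± 1.19% in WT_FvB and 65.6 ± 2.41% in Tg_FvB. The share of Col4a6 was 4.84 ± 0.455%, 8.69 ± 1.47%, 12.5 ± 0.553% and 9.16 ± 1.02% in that order. Col4a3, of the adult kidney trimer, fell in the knockout from 0.831 ± 0.0456 to 0.325 ± 0.0754 CPM (-1.33 ± 0.35, adjusted p = 0.00644), and its neighbour Col4a4 had 0.268 ± 0.128 and 0.257 ± 0.0637 CPM (adjusted p = 0.985).

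**Figure D3:**
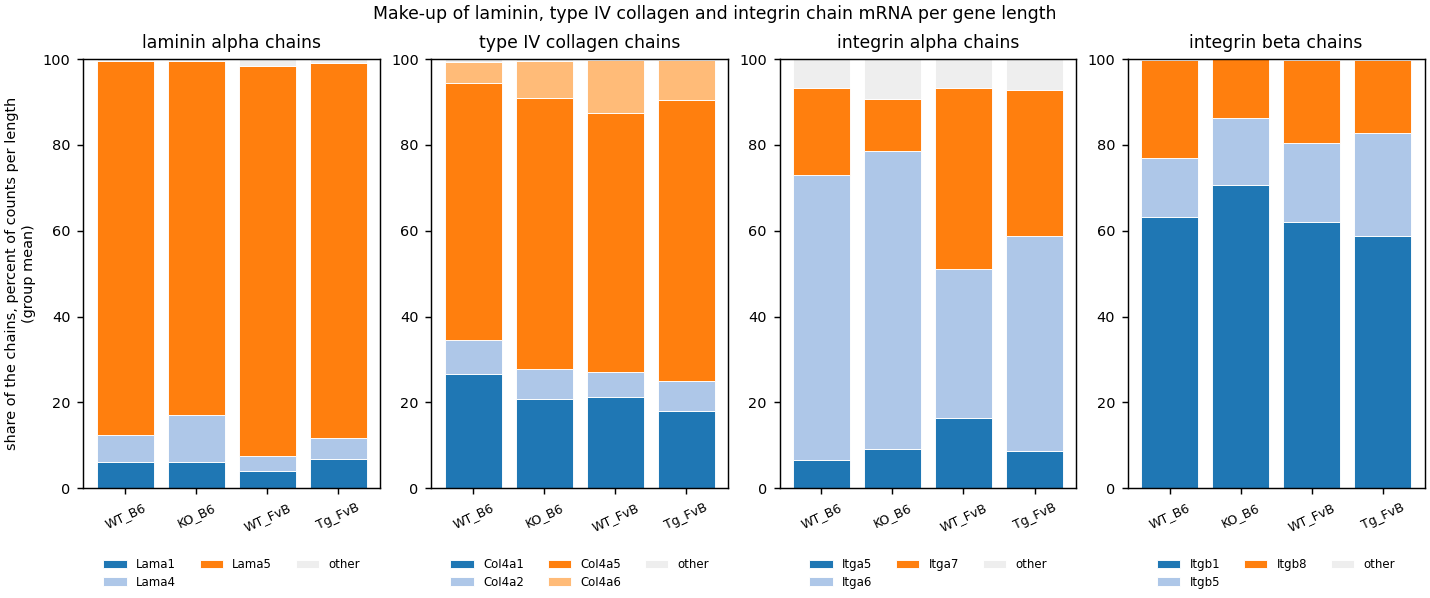
Stacked bars of the make-up of laminin alpha, type IV collagen, integrin alpha and integrin beta chain RNA in the 4 groups, as percent of the summed CPM per gene length (group means, chains under 5% in all groups pooled as other). Lama5 and Col4a5 are the largest parts in each group, and Itga6 takes 66.5% of the alpha chains in WT_B6 but 34.9% in WT_FvB.

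The fibril-forming collagens were led by type V and type XI chains, which nucleate thin fibrils. Per length Col5a2 made up 41.8 ± 1.12% and Col11a1 29.8 ± 0.403% of fibrillar collagen RNA in WT_B6. Among 8 tested, 1 rose and 1 fell in the knockout. Col5a3 (gene identifier 53867, chromosome 9, 20770050 to 20815117), a type V chain, had 12.8, 11.4 and 11.7 CPM in WT_B6 and 18.7, 18.3, 17.7 and 25.1 in KO_B6. All knockout libraries were above all wild types, and replicate 4 was the highest. Col5a3 rose 1.67-fold (0.74 ± 0.12, edgeR adjusted p = 0.000196), against 0.12 ± 0.13 with the transgene (adjusted p = 0.657). Col2a1, the cartilage collagen, had 2.13, 2.22 and 2.22 CPM in WT_B6 and 1.54, 0.905, 0.814 and 0.640 in KO_B6, again without overlap, and fell by 1.19 ± 0.34 (adjusted p = 0.0110). Col1a1, the main chain of bone and skin collagen, was near 1 CPM (0.863 ± 0.109 in WT_B6 and 0.714 ± 0.142 in KO_B6), and its partner Col1a2 did not pass the count filter.

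With the transgene the type V chains Col5a1 and Col5a2, which share one trimer, moved in opposite directions. Col5a2 (gene identifier 12832, chromosome 1, 45374331 to 45503282) had 133 and 141 CPM in WT_FvB and 41.2, 60.6 and 87.4 in Tg_FvB (lowest, median and highest). Col5a1 (gene identifier 12831, chromosome 2, 27886381 to 28039510) had 5.91 and 5.15 CPM in WT_FvB and 7.60, 8.23 and 11.4 in Tg_FvB. The groups did not overlap in either gene. Col5a2 fell by 1.14 ± 0.24 (edgeR adjusted p = 0.0309) and Col5a1 rose by 0.70 ± 0.16 (adjusted p = 0.0453). Both were called without replicates 5 and 6, at -1.39 ± 0.21 (adjusted p = 0.00355) and 0.52 ± 0.12 (adjusted p = 0.0326), and neither without WT_FvB replicate 1 or 2 or without Tg_FvB replicate 1, 2 or 3. With litter as a covariate the call of Col5a1 was lost too. Between the wild types they differed in opposite directions too, with Col5a2 at 0.77 ± 0.27 (adjusted p = 0.0301) and Col5a1 at -1.34 ± 0.18 (adjusted p = 9.36e-05) in WT_FvB. The wild-type call of Col5a2 was lost in 6 of 13 alternatives, among them the omission of any one wild-type library, and that of Col5a1 in 1, the summed libraries. In the knockout neither was called (Col5a2 -0.56 ± 0.23, adjusted p = 0.0598, and Col5a1 -0.02 ± 0.14, adjusted p = 0.908). The partner chain Col11a1 stood at 112 ± 0.241 CPM in WT_FvB and 55.0 ± 20.3 in Tg_FvB and just missed the threshold (-1.03 ± 0.25, adjusted p = 0.0516), but was called without replicates 5 and 6 (-1.07 ± 0.18, adjusted p = 0.00678). Col27a1, a cartilage collagen, was lower in WT_FvB (5.81 and 5.24 CPM) than in WT_B6 (23.4, 21.8 and 22.4 CPM) (-2.03 ± 0.41, adjusted p = 0.00120), and KO_B6 had 12.7, 12.1, 11.4 and 19.8 CPM, all below WT_B6 but not called (adjusted p = 0.0795).

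Fibril-associated collagens, which coat fibrils and have interrupted triple helices, had 2 of 9 chains called higher and 4 lower in the knockout, against 24.8% and 20.9% of all genes. Type IX collagen is a trimer of the chains of Col9a1, Col9a2 and Col9a3. Col9a1 (gene identifier 12839, chromosome 1, 24177589 to 24252738) had 10.2, 9.94 and 9.86 CPM in WT_B6, 6.99, 3.37, 3.38 and 6.83 in KO_B6 and 1.28 and 1.00 in WT_FvB, with 1.82, 4.69 and 7.09 in Tg_FvB (lowest, median and highest). Every knockout library was below every WT_B6 library, and every transgenic library was above both WT_FvB libraries, replicate 4 being the nearest. Col9a1 fell in the knockout (-0.96 ± 0.34, edgeR adjusted p = 0.0301) and rose with the transgene (2.10 ± 0.49, adjusted p = 0.0423), and those effects differed (-3.06 ± 0.59, adjusted p = 0.00149). WT_FvB lay -3.13 ± 0.52 from WT_B6 (adjusted p = 0.000309), so the level in WT_B6 was above that of every other library. The knockout call was lost in 7 of 18 alternatives, among them litter as a covariate and the omission of any WT_B6 library or of KO_B6 replicate 2 or 3. The transgene call was lost in 10 of 19, among them litter as a covariate and the omission of either WT_FvB library or of Tg_FvB replicate 1, 2, 3 or 6, and held without replicates 5 and 6 (1.74 ± 0.46, adjusted p = 0.0486).

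Col9a2 followed Col9a1 in direction. It had 5.78, 5.44 and 5.25 CPM in WT_B6 and 5.03, 2.84, 2.91 and 3.31 in KO_B6, and fell by 0.64 ± 0.22 (edgeR adjusted p = 0.0252). It had 1.77 and 1.69 CPM in WT_FvB and 1.89, 2.55 and 3.52 in Tg_FvB (lowest, median and highest), where the difference of 0.62 ± 0.28 was not called (adjusted p = 0.248). The knockout call was lost in 7 of 18 alternatives, among them litter as a covariate and the omission of WT_B6 replicate 1 or 2 or of KO_B6 replicate 2, 3 or 4. The effects differed (-1.27 ± 0.35, adjusted p = 0.0118). Col9a3, the most abundant chain, had 46.6, 42.5 and 44.4 CPM in WT_B6 and 40.7, 58.3, 55.7 and 71.8 in KO_B6, with replicate 1 below the wild types and the others above. Its call as higher (0.35 ± 0.13, adjusted p = 0.0450) was lost in 16 of 18 alternatives. Col19a1, which lies next to Col9a1 on chromosome 1, rose in the knockout from 0.162 ± 0.141 to 1.24 ± 0.50 CPM (2.75 ± 0.53, adjusted p = 0.000746), with 0 to 8 counts per WT_B6 library. Col14a1 and Col22a1, both under 1 CPM, fell from 0.672 ± 0.167 to 0.270 ± 0.133 CPM and from 0.784 ± 0.0473 to 0.449 ± 0.0813 CPM (edgeR adjusted p = 0.00997 and 0.0307). These calls were lost in 2 and 8 of 17 alternatives. Among them were the omission of WT_B6 replicate 2 for Col14a1 and of any WT_B6 library for Col22a1. The abundant Col16a1 and Col12a1 were called in neither the knockout (adjusted p = 0.881 and 0.611) nor the transgene comparison (0.105 and 0.386). Col16a1 stood at 87.6 ± 1.48 CPM in WT_FvB and 46.3 ± 19.3 in Tg_FvB, and was called lower without replicates 5 and 6 (-0.95 ± 0.20, adjusted p = 0.0207).

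Several of the remaining collagens differed between the wild types, where background and culture cannot be told apart. Col18a1, the basement membrane collagen from which endostatin is cut, had 6.38, 4.99 and 5.83 CPM in WT_B6 and 45.6 and 44.8 in WT_FvB, 7.92-fold higher (edgeR adjusted p = 0.00867). KO_B6 had 4.48, 22.2, 21 and 19.5 CPM, with replicate 1 at the wild-type level and the other 3 above it, and Tg_FvB had 2.86, 14.3 and 49.0 CPM, from below WT_B6 to above WT_FvB. It was called in neither the knockout (adjusted p = 0.0963) nor the transgene comparison (adjusted p = 0.424). Col26a1 went the other way, with 10.5, 10.1 and 10.2 CPM in WT_B6 and 4.38 and 4.33 in WT_FvB (-1.24 ± 0.31, adjusted p = 0.00484). Col28a1 was at 0.975 ± 0.00784 CPM in WT_B6 and 0.0966 ± 0.0722 in WT_FvB, which is 1 and 3 counts. Of type VI collagen, which forms beaded filaments, Col6a1 and Col6a2 reached 1.72 ± 0.140 and 0.943 ± 0.149 CPM in WT_FvB and 0.202 ± 0.0342 and 0.112 ± 0.0157 in WT_B6. Col6a2 fell with the transgene to 0.138 ± 0.0852 CPM (-2.73 ± 0.38, adjusted p = 0.00505) on 1 to 9 counts per transgenic library, and was called without replicates 5 and 6 too (-2.54 ± 0.41, adjusted p = 0.00473). This call was lost in 5 of 18 alternatives, which were the libraries of that background only, litter as a covariate, summed libraries and the omission of either WT_FvB library. Col7a1, Col11a2, Col20a1, Col23a1, Col25a1 and Col6a3 were called in neither genotype comparison.

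Of 18 tested integrin chains 4 were higher and 4 lower in the knockout, near the 24.8% and 20.9% of all genes. The laminin-binding alpha 6 chain gene Itga6, a marker of neural stem cells, was the most abundant alpha chain of WT_B6. Its levels were 307 ± 5.64 CPM in WT_B6, 274 ± 17.5 in KO_B6, 156 ± 6.30 in WT_FvB and 187 ± 27.3 in Tg_FvB (mean ± SD), and it was lower in WT_FvB than in WT_B6 (-0.98 ± 0.13, edgeR adjusted p = 7.78e-05). Another laminin-binding chain, Itga7 (gene identifier 16404, chromosome 10, 128933421 to 128958286), had 91.2, 86.5 and 89.7 CPM in WT_B6 and 34.4, 36.9, 37.4 and 79.0 in KO_B6. It had 177 and 182 CPM in WT_FvB and 70.9, 119 and 191 in Tg_FvB (lowest, median and highest). KO_B6 replicate 4 was close to the wild types and the other 3 far below. Itga7 fell in the knockout (-0.92 ± 0.29, adjusted p = 0.0183) and was 2.01-fold higher in WT_FvB than in WT_B6 (adjusted p = 0.0253). The wild-type call of Itga7 was lost in 6 of 13 alternatives, among them the omission of any one WT_B6 or WT_FvB library. Per length the ratio of Itga7 to Itga6 was 0.304 ± 0.0122 in WT_B6, 0.179 ± 0.0822 in KO_B6, 1.21 ± 0.0767 in WT_FvB and 0.720 ± 0.296 in Tg_FvB, so Itga7 exceeded Itga6 in WT_FvB on average but not in the other groups.

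Among collagen-binding chains Itga2 fell in the knockout. Itga2 (gene identifier 16398, chromosome 13, 114833081 to 114932100) encodes the alpha 2 chain, which with beta 1 binds fibrillar collagen. It had 13.3, 13.6 and 13.2 CPM in WT_B6 and 4.00, 5.43, 6.27 and 4.43 in KO_B6, while WT_FvB had 15.2 and 12.2 and Tg_FvB 12.2, 12.6 and 13.8 (lowest, median and highest). All 4 knockout libraries were below all other libraries. Itga2 fell to 0.377 times the wild-type level (-1.41 ± 0.13, edgeR adjusted p = 4.40e-06), against -0.10 ± 0.14 with the transgene (adjusted p = 0.735). The difference of effects was -1.31 ± 0.19 (adjusted p = 0.000352), and the wild types differed by 0.04 ± 0.15 (adjusted p = 0.867). With near-identical libraries summed it had the lowest adjusted p of any member in the knockout comparison (0.0667). Itga10, a cartilage collagen receptor, rose from 2.53 ± 0.112 to 4.09 ± 0.886 CPM (0.69 ± 0.20, adjusted p = 0.0110). The call was lost with litter as a covariate. Itga10 shares 33.5% of its exon bases with another annotated gene, so part of its counts may belong to that gene. Itga1, the other tested chain of this class, stood at 4.89 ± 0.320 and 5.20 ± 0.847 CPM (adjusted p = 0.788).

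Receptors of fibronectin and related ligands included the largest integrin rise. Itga4 (gene identifier 16401, chromosome 2, 79255426 to 79333114) encodes the alpha 4 chain, which binds fibronectin and VCAM-1. It had 16.9, 17.3 and 18.5 CPM in WT_B6 and 40.4, 49.2, 49.8 and 39.1 in KO_B6, and 7.29 and 5.83 in WT_FvB with 4.69, 5.31 and 13.3 in Tg_FvB (lowest, median and highest). The knockout libraries were above all others and the FvB/BalbC libraries all below WT_B6, with Tg_FvB replicate 5 standing above the rest of its group. Itga4 rose 2.54-fold (1.34 ± 0.27, edgeR adjusted p = 0.00111), with 0.05 ± 0.32 for the transgene (adjusted p = 0.957) and a difference of effects of 1.30 ± 0.42 (adjusted p = 0.0240). WT_FvB was lower than WT_B6 (-1.42 ± 0.36, adjusted p = 0.00441), a call lost without WT_FvB replicate 2. Itga8 (gene identifier 241226, chromosome 2, 12106632 to 12301985), whose alpha 8 chain recognises the RGD motif of fibronectin and nephronectin, had 1.25, 1.43 and 1.26 CPM in WT_B6 and 2.46, 2.75, 2.76 and 2.24 in KO_B6. It rose 1.93-fold without overlap (0.95 ± 0.27, adjusted p = 0.00934), and the difference of effects was 1.22 ± 0.39 (adjusted p = 0.0234).

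The classical fibronectin receptor chain Itga5 differed between the wild types. Itga5 (gene identifier 16402, chromosome 15, 103344286 to 103366791) had 31.8, 30.8 and 31.5 CPM in WT_B6, 26.3, 42.9, 42.7 and 37.1 in KO_B6 and 74.1 and 76.3 in WT_FvB, with 13.3, 30.5 and 62.6 in Tg_FvB (lowest, median and highest). KO_B6 replicate 1 was below WT_B6 and the other 3 above, and all transgenic libraries were below WT_FvB. It was 2.40-fold higher in WT_FvB than in WT_B6 (1.26 ± 0.43, edgeR adjusted p = 0.0246), and was called in neither the knockout (0.25 ± 0.37, adjusted p = 0.606) nor the transgene comparison (-1.07 ± 0.37, adjusted p = 0.145). The wild-type call was lost in 6 of 13 alternatives, among them the omission of any one WT_B6 or WT_FvB library. Without Tg_FvB replicates 5 and 6 Itga5 was called lower (-1.06 ± 0.27, adjusted p = 0.0456). Per length the ratio of Fn1 to Itga5 was 0.230 ± 0.0190 in WT_B6, 0.543 ± 0.132 in KO_B6, 1.87 ± 0.0886 in WT_FvB and 1.16 ± 0.267 in Tg_FvB, with no overlap between KO_B6 and WT_B6. The alpha v chain gene Itgav, which the naming rule does not take in, rose in the knockout from 167 ± 4.59 to 241 ± 27.9 CPM (adjusted p = 0.00750). It stood at 311 ± 6.02 CPM in WT_FvB and 249 ± 45.0 in Tg_FvB.

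Of the beta chains Itgb1 rose and Itgb8 fell in the knockout. Itgb1 (gene identifier 16412, chromosome 8, 128685654 to 128733579) had 729, 773 and 768 CPM in WT_B6, 896, 931, 939 and 937 in KO_B6 and 845 and 816 in WT_FvB, with 787, 807 and 846 in Tg_FvB (lowest, median and highest). Every knockout library was above all others, and the transgenic libraries overlapped with their wild types. The rise was 1.22-fold (0.29 ± 0.05, edgeR adjusted p = 0.000317), and the effects differed by 0.32 ± 0.07 (adjusted p = 0.00347). Itgb8 (gene identifier 320910, chromosome 12, 119162803 to 119238276) pairs with alpha v and activates latent TGF-beta, and in the cortex radial glia use it to steer vessel growth. It had 199, 203 and 204 CPM in WT_B6 and 129, 130.4, 131 and 140.3 in KO_B6, and 192 and 189.5 in WT_FvB with 147, 178 and 182 in Tg_FvB. Every knockout library was below all others. Itgb8 fell to 0.657 times the wild-type level (-0.61 ± 0.07, adjusted p = 1.44e-05), against -0.14 ± 0.07 with the transgene (adjusted p = 0.318), and the effects differed (-0.47 ± 0.10, adjusted p = 0.00236).

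With the transgene edgeR called 0 of 18 integrin chains, against 1.85% of all genes, with 6 at an unadjusted p under 0.05. DESeq2 called 1 and limma-voom 0, and edgeR without replicates 5 and 6 called 3, against 4.19% of all genes. The beta chain RNA was mostly that of Itgb1. Per length Itgb1 made up 63.2 ± 0.915% of beta chain RNA in WT_B6, 70.7 ± 2.19% in KO_B6, 62.0 ± 1.04% in WT_FvB and 58.8 ± 2.97% in Tg_FvB. Itgb8 took 22.8 ± 0.174%, 13.7 ± 0.0458%, 19.3 ± 0.0127% and 17.1 ± 1.74% in the same order. Itgb5, another partner of alpha v, was not called in the knockout (129 ± 5.06 and 159.5 ± 28.7 CPM, edgeR adjusted p = 0.189) and was higher in WT_FvB (192 ± 9.33 CPM, adjusted p = 0.0395), a call lost in 6 of 13 alternatives, among them the omission of any one wild-type library. Itgb7, a partner of alpha 4 in lymphocytes, fell from 0.726 ± 0.106 to 0.197 ± 0.0435 CPM (-1.89 ± 0.31, adjusted p = 0.000200) on 8 to 12 counts per knockout library. The leukocyte chain Itgb2 was at 0.0721 ± 0.0219 CPM in WT_B6 and 1.11 ± 0.0944 in WT_FvB. Itgb3 and Itgb4 were called in neither genotype comparison, nor were the alpha chains Itga1, Itga2b, Itga3 and Itga9. Without Tg_FvB replicates 5 and 6 Itgb3 and Itgb2 were called lower with the transgene (-1.10 ± 0.29, adjusted p = 0.0476, and -1.98 ± 0.46, adjusted p = 0.0303).

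Lama4, Lamb2, Col2a1, Col5a3, Itga2, Itga4, Itga7, Itga8, Itgb1 and Itgb8 kept their knockout call in all 18 alternatives run but the one that sums near-identical libraries. In that one all 23 members called in the knockout comparison kept their direction, the 9 members with an unadjusted p under 0.05 compare with 21.7% of all genes, and 5 genes were called in all. In the transgene, difference and wild-type comparisons all 5, 20 and 28 called members kept their direction too, with 0 genes called and 2.95%, 17.6% and 23.2% of all genes at an unadjusted p under 0.05.

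**Figure D4:**
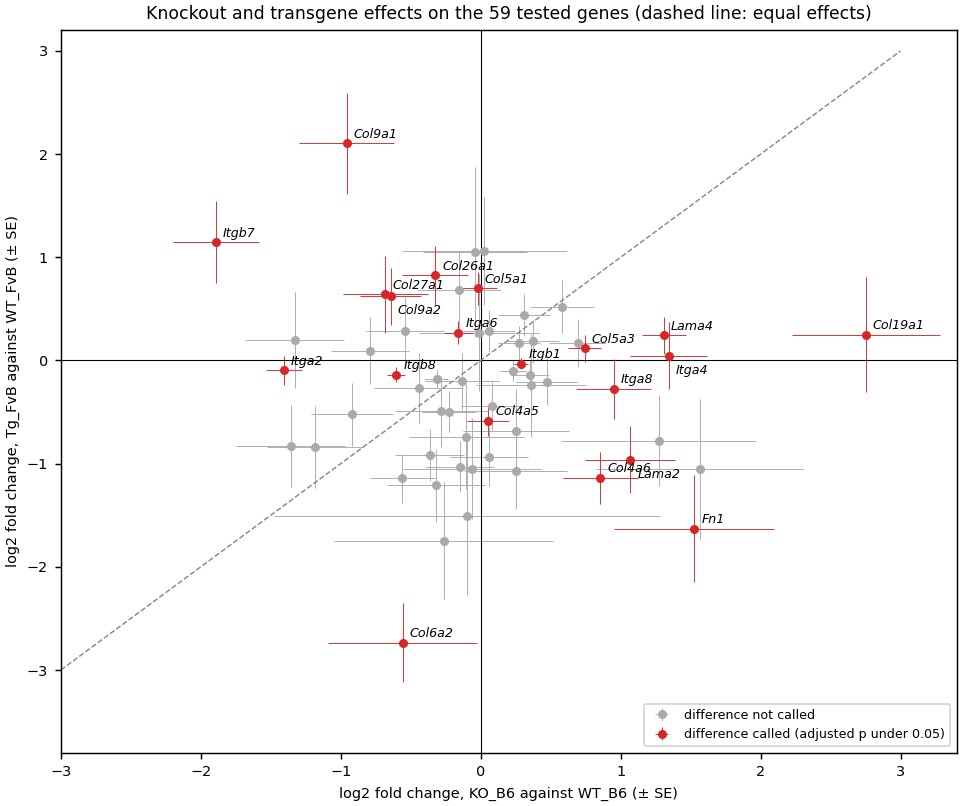
Log2 fold change (± SE) of the 59 tested members in Tg_FvB against WT_FvB, plotted over that in KO_B6 against WT_B6, with red and named points where those effects differ at an edgeR adjusted p under 0.05 and a dashed line at equal effects. Col4a6 and Fn1 lie at the lower right and Col9a1 at the upper left, and 20 members are red.

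The 6 transgenic libraries were spread widely in these genes. Replicate 6 was the lowest of the 6 in 33 of 59 tested members (55.9%), against 23.2% of all genes tested. Replicate 5 was the highest in 24 members (40.7%, against 23.3% of all genes) and replicate 4 in 21 (35.6%, against 28.3%). Fn1, Col18a1, Itga5, Col16a1 and Col11a1 all showed replicates 4 and 5 at the top, nearest to WT_FvB, and replicate 6 at the bottom. Without replicates 5 and 6 the number of members called was 13, 2 higher and 11 lower, against 4.19% of all genes. All 20 members whose knockout and transgene effects differed were called there too, Fn1 at 3.07 ± 0.57 (adjusted p = 0.00105). The transgene difference of Lama4, Col5a3, Itga2, Itga4, Itga8, Itgb1 and Itgb8 was not called there, with adjusted p from 0.261 for Itgb8 to 0.730 for Itgb1. The number of members called was 14 without replicate 4, 10 without replicate 5 and 5 without replicate 6, and 1 without replicate 1, 2 or 3. The share of all genes called without single transgenic libraries is not given here, so these counts do not set the members apart from other genes. Without WT_FvB replicate 1 or 2 edgeR called 0 members and 2 genes in all, with 16 and 14 members at an unadjusted p under 0.05.

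Enzymes that modify, cut and crosslink collagen were examined beside the collagens, of which 4 of 32 tested were higher and 6 lower in the knockout. Of 29 tested collagen processing genes 14 were higher and 6 lower in the knockout (edgeR adjusted p under 0.05), against 24.8% and 20.9% of all genes, with a median log2 fold change of 0.29 against 0.02 over all genes. P4ha2, a prolyl 4-hydroxylase subunit needed for stable triple helices, rose from 1.45 ± 0.0301 to 7.26 ± 2.00 CPM (2.32 ± 0.52, adjusted p = 0.00219). Adamts14, a procollagen N-propeptidase, rose from 2.36 ± 0.206 to 11.8 ± 2.40 CPM (adjusted p = 0.00149). P4ha3 fell from 2.94 ± 0.247 to 0.662 ± 0.160 CPM (adjusted p = 2.35e-05) and the tolloid-like protease gene Tll2 from 0.783 ± 0.142 to 0.210 ± 0.0417 CPM (adjusted p = 0.00394). With the transgene 0 were higher and 6 lower, against 0.688% and 1.17% of all genes, with a median of -0.19. Among them the lysyl oxidase-like genes Loxl2, which crosslinks collagen, and Loxl4 fell from 27.7 ± 1.70 to 7.4 ± 4.17 CPM (adjusted p = 0.0423) and from 1.16 ± 0.164 to 0.434 ± 0.155 CPM (adjusted p = 0.0339). Without replicates 5 and 6 both were called too, at -1.92 ± 0.40 (adjusted p = 0.0181) and -1.38 ± 0.34 (adjusted p = 0.0414). With the libraries of that background only, edgeR called 10 genes in all, against 283 in the main fit. Whether any of the 6 processing genes called lower with the transgene is among them is not given here. In WT_FvB 17 were higher and 4 lower than in WT_B6, against 25.4% and 23.5% of all genes (median 0.34), P4ha2 at 19.2 ± 0.892 CPM and Adamts14 at 33.8 ± 0.00615 CPM.

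Of 15 tested partners of the basement membrane 5 were called in the knockout, 2 higher and 3 lower (median -0.09), a smaller share than the 45.8% of all genes. The elastic fibre and basement membrane protein gene Fbln2 rose from 496 ± 16.7 to 799 ± 159 CPM (edgeR adjusted p = 0.00387). The collagen chaperone gene Sparc fell from 144 ± 6.58 to 71.1 ± 24.8 CPM (adjusted p = 0.00121), and Nid1, whose protein nidogen joins laminin to type IV collagen, fell from 13.1 ± 0.254 to 6.74 ± 2.09 CPM (adjusted p = 0.0329). With the transgene edgeR called 0 of 15 (median -0.26), against 1.85% of all genes, with 8 at an unadjusted p under 0.05. DESeq2 and limma-voom called 2 each. Of 14 other matrix receptors 2 rose and 4 fell in the knockout (median -0.01), against 24.8% and 20.9% of all genes. The hyaluronan receptor gene Cd44 rose from 34.5 ± 2.36 to 68.2 ± 13.0 CPM (adjusted p = 0.00135) and the syndecan gene Sdc1 from 15.5 ± 0.873 to 26.1 ± 3.30 CPM (adjusted p = 0.000191), while the collagen receptor gene Lair1 fell from 1.64 ± 0.0256 to 0.573 ± 0.263 CPM (adjusted p = 0.00104). The syndecan gene Sdc4 was the one of these receptors that fell with the transgene, from 74.5 ± 1.62 to 41.8 ± 11.7 CPM (adjusted p = 0.0455). In that comparison 1.17% of all genes fell. Sdc4 was called without replicates 5 and 6 too (-0.78 ± 0.15, adjusted p = 0.0123), and its other alternatives are not given here.

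Inside the cell, of 27 tested integrin adaptors and focal adhesion genes 7 rose and 10 fell in the knockout (median 0.03), against 24.8% and 20.9% of all genes. Lims2 and Parvb, which encode proteins of the complex of integrin-linked kinase, fell from 27.5 ± 1.35 to 7.91 ± 2.43 CPM (edgeR adjusted p = 0.00106) and from 67.5 ± 0.370 to 27.3 ± 6.02 CPM (adjusted p = 0.000582). Fermt3 and Itgb1bp2 rose, from 0.748 ± 0.171 to 1.32 ± 0.219 CPM (adjusted p = 0.0216) and from 1.16 ± 0.127 to 2.22 ± 0.420 CPM (adjusted p = 0.0200). With the transgene the scaffold gene Bcar1 fell from 45.8 ± 0.131 to 35.6 ± 3.67 CPM (adjusted p = 0.0445) and no other of the 27 was called. Without replicates 5 and 6 Bcar1 was called too (-0.38 ± 0.07, adjusted p = 0.0136), and its other alternatives are not given here. Lims2 stood at 2.97 ± 0.464 CPM in WT_FvB, below both B6 groups.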

How the data were processed

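RNA-seq of cultured neural stem and progenitor cells gave 15 libraries, placed in groups by their labelled genotype and mouse background. The authors deposited raw counts per gene and, as the other column, gene length in bases. The submitters' processing notes name bcl2fastq, featureCounts and the build mm10. The sources used here give no aligner, annotation, strandedness or tool version, so genes that overlap another gene are uncertain. Entries without a gene name (0.450% to 0.545% of counts) were left out.

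Counts were tested with edgeR 4.0.16 (R 4.3.3, quasi-likelihood F-test, TMM scaling, 1 model of all 15 libraries with 1 coefficient per group, filterByExpr with a minimum count of 10). A gene was called at a Benjamini-Hochberg adjusted p under 0.05 over all 15261 genes tested. Standard errors come from the F statistic, and CPM are TMM scaled and given as mean ± SD. The exact permutation test of Fn1 used log2(CPM + 0.5). The test was also run on simulated counts, and its outcome there is not given here. The labels number embryos and litters, but p-values measure the spread between these libraries, and near-identical ones may share more than the labels say. The same litter and embryo number stand on 1 wild type of each background.

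The members, gene lists and naming rule were chosen with earlier results of these data known. Values in every library are given for Fn1, Itgb1, Col4a1, Col4a2 and Lamc1 and, per comparison, for up to 6 called members with the largest rise and 6 with the largest fall at a mean of at least 1 CPM. Other members are named by subfamily, and up to 2 genes per list and direction. Coordinates of all 76 members were matched by gene identifier to RefSeq GRCm38.p6. Alternatives were RLE size factors, DESeq2 1.42.0, limma-voom (limma 3.58.1), other count filters, the libraries of 1 background only, a replicate block, litter as a covariate, summed near-identical libraries, and omission of single libraries, of Tg_FvB replicates 5 and 6, and, added after seeing the data, of KO_B6 replicate 1 and Tg_FvB replicate 6 together. Replicate numbers were not taken to pair samples, since same-numbered libraries share a labelled litter in some cases and not in others. Some titles of Tg_FvB say knockout, and the genotype field was followed. 1 member is not reported here.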

Additional observations from a re-analysis of the deposited data

Results flagged for a closer look

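In 48 groups of 4 or 6 libraries checked over the named members, 12 had a single library set apart from the rest by a gap test at the 95% level, which chance alone passes in about 5% of groups. Of these, 6 were KO_B6 replicate 4. It stood apart in Lama4 (18.4 CPM), Col5a3 (25.1), Itgb8 (140.3), Itga7 (79.0), Col27a1 (19.8) and Col5a1 (15.2), high in all of them. The 7 choroid plexus markers summed to 10.5 CPM in this library, against 3.45, 3.96 and 3.65 in KO_B6 replicates 1 to 3. The part of this in the gaps was not tested. KO_B6 replicate 1 stood apart as low in Col18a1 (4.48 CPM) and as high in Col5a2 (73.8). Tg_FvB replicate 5 was high in Col27a1 (17.4 CPM) and Itga4 (13.3), replicate 6 low in Itgb8 (146.9) and replicate 4 high in Lama3 (2.61). KO_B6 replicates 2 and 3 and Tg_FvB replicates 1 to 3 are near-identical, and the part of this in the gaps was not tested.

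The knockout and transgene effects differed from each other, by edgeR's test of the difference at an adjusted p under 0.05, in 20 members, against 37.3% of all genes. The knockout and the transgene stand on different backgrounds, so allele and background cannot be told apart in this difference. The difference, knockout minus transgene on the log2 scale, was 3.15 for Fn1, 1.99 for Col4a6, 1.30 for Itga4, 1.22 for Itga8, 1.07 for Lama4, 0.63 for Col4a5, 0.62 for Col5a3 and 0.32 for Itgb1. It was -3.06 for Col9a1, -1.32 for Col27a1, -1.31 for Itga2, -1.27 for Col9a2, -1.15 for Col26a1, -0.72 for Col5a1, -0.47 for Itgb8 and -0.43 for Itga6. Among members with under 1 CPM in most groups it was 2.50 for Col19a1, 2.18 for Col6a2, 2.03 for Lama2 and -3.04 for Itgb7. The call of a difference was lost in 13 of 25 alternatives for Col27a1 and in 10 of 25 for Col4a5 and for Itga6, against 1 of 25 for Fn1, Col9a1, Col4a6, Lama4, Itga2 and Itgb8. For Col27a1, Col4a5 and Itga6 these include the omission of any one wild-type library and litter as a covariate. Col4a6 and Col9a1 were called in both comparisons, in opposite directions.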

How the results depend on the processing

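No member that the text names by the rule changed direction under any alternative. Of 1066 alternative values of single members 896 kept their side of the threshold, 151 lost a call and 19 gained one. The number of members called in the knockout comparison (23) was 0 with near-identical libraries summed, and 15 to 27 when single libraries were left out, 15 of these without WT_B6 replicate 2. The transgene comparison (5) gave 9 with DESeq2, 3 at a mean of at least 1 CPM, 0 with the libraries of that background only (19 of 55 at an unadjusted p under 0.05), 1 with litter as a covariate, 0 with near-identical libraries summed, 13 without Tg_FvB replicates 5 and 6, and 0 to 14 without single libraries. The 0 arose without WT_FvB replicate 1 or 2, the 1 without Tg_FvB replicate 1, 2 or 3, the 10 without replicate 5 and the 14 without replicate 4. The difference of effects (20) gave 0 with near-identical libraries summed and 9 to 27 without single libraries, 9 without WT_FvB replicate 2. The wild-type comparison (28) gave 0 when summed and 16 to 22 without single libraries, 16 without WT_FvB replicate 2.

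With the replicate block 30 members were called in the knockout, 18 with the transgene and 29 for the difference. The share of all genes called with this block, or with single libraries left out, is not given here. These counts therefore show how calls depend on the processing, and do not set the members apart from other genes. The deviations of samples with the same number correlated at -0.01, 0.01 and -0.02 on C57Bl/6 and at 0.14 and -0.02 on FvB/BalbC. These values cannot decide on pairing, since the deviations of the 2 WT_FvB libraries mirror each other and the WT_B6 libraries are near-identical. Numbers were not used to pair samples, as the labelled litters match in some cases only. Summing leaves few libraries per group, with 1 for each wild type, and the spread then comes from the other groups. Depth limits members under 1 CPM, and 2 WT_FvB libraries limit every comparison that uses them.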
